A study of Mus musculus with 20 samples.

Results

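The 28 genes described here encode the enzymes that make cholesterol and fatty acids, together with 4 proteins that control them. They were chosen by name, as a list of genes driven by the sterol regulatory element-binding proteins (SREBPs). No cut on their values was used, but earlier results of these data were known when the list was made. All 28 were found by symbol among 20636 genes of the expression table and all 28 passed the filter on low values, which left 16648 genes. By role they comprise 4 regulators, 6 mevalonate and isoprenoid steps, 11 squalene and sterol steps, 6 fatty acid steps and 1 sterol carrier. The 6 and the 11 steps are together called the 17 sterol enzymes.

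The study sequenced RNA of mouse pancreatic ductal adenocarcinomas. In these mice a tamoxifen-activated Cre recombinase under Ptf1a, a gene of acinar cells, acts on floxed alleles in the exocrine pancreas. KPAT mice carried floxed alleles of both Trp53 and Arf (Trp53fl/fl;Arf-fl/fl). KAT mice carried floxed Arf alone (Arf-fl/fl), and KPT mice carried floxed Trp53 alone (Trp53fl/fl). All 3 groups also carried Rosa26LSL-tdTomato/LSL-tdTomato and Ptf1aCreER among their shared alleles, had 5 mg tamoxifen by gavage daily for 3 days when 8 to 10 weeks old, and lived until morbidity, so that the tumours differ in age by an amount that the labels do not give. Each group held 5 tumours, and the 5 samples of the KT group, without either floxed gene, were not analysed here. The material was whole tumour, so fewer cells of a type and less RNA per cell cannot be told apart.

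Values are given in deposited units, which are reads divided by 1 factor per library, so that 1 unit stood for 19.5 reads on average (geometric mean over libraries). Libraries held 14696138 to 26248484 reads. Trp53 averaged 41.9 ± 9.53 units in KPAT and 125 ± 20.03 units in KAT, against 24.3 ± 1.77 units in KPT (SD, n = 5 each), and was lower in every tumour with the floxed allele than in any without it. Cdkn2a, the gene that holds Arf, was not lower with floxed Arf: it averaged 622 ± 289 units in KPAT and 426 ± 254 units in KAT, against 297 ± 47.1 units in KPT (SD, n = 5 each). Among KAT tumours it was at 150 and 161 units in KAT 4 and KAT 5 and at 516 to 690 units in KAT 1 to 3. These values cover the whole gene, also the part outside Arf, and so do not check the labels of the Arf groups. Of 10 ductal markers such as Krt19, all were expressed in every tumour. Of 10 acinar markers, 8 were found by symbol and all 8 passed the filter, while 2 of these were at 0 in some tumours. KAT 4 and KAT 5 stood apart from the rest as the most alike pair of libraries. Their Spearman correlation over all tested genes was 0.989, while that of the next pair was 0.973. Their counts still differed by more than sampling noise (chi-square per degree of freedom 17.6, against 53.2 for the next pair), so they are kept as 2 samples. The calls of Scap and Acly are also given with their mean as 1 sample. So are the correlations within sterol enzymes, within fatty acid steps, and of the regulators with sterol enzymes. Other correlations, among them those within KAT tumours, count them as 2 samples.

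SREBPs are made as precursors in the membrane of the endoplasmic reticulum. When membrane sterol is low, Scap escorts the precursor to the Golgi, where proteases release the part that enters the nucleus and activates genes of sterol and fatty acid synthesis; when sterol is ample, Insig1 holds Scap back. Srebf2 encodes the form known mainly for cholesterol synthesis, and Srebf1 encodes forms known mainly for fatty acid synthesis. The messenger RNA level of either gene does not report how much protein has been released. Pancreatic tumour cells are known both to make cholesterol and to take it up.

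Promoters of 5 members are printed here, because SREBPs, together with the factor NF-Y, act at such sites. Hmgcs1, Cyp51 and Lss are sterol enzymes of which KAT 4 and KAT 5 held the highest levels, and Scap and Acly are the 2 genes that were higher in KAT than in KPT tumours. Each run is 300 bases from RefSeq (GRCm38.p6), 5′ to 3′ on the strand of the gene, from 250 bases before the transcription start to 50 bases after it. The windows are chr13:119690101-119690400 (plus strand) for Hmgcs1, chr5:4104648-4104947 (minus strand) for Cyp51, chr10:76531355-76531654 (plus strand) for Lss, chr9:110333038-110333337 (plus strand) for Scap and chr11:100527951-100528250 (minus strand) for Acly. Capitals mark the sterol regulatory element TCACNCCAC, the CCAAT box and the E-box CACGTG, on either strand, so that ATTGG is a CCAAT box on the other strand.
Hmgcs1: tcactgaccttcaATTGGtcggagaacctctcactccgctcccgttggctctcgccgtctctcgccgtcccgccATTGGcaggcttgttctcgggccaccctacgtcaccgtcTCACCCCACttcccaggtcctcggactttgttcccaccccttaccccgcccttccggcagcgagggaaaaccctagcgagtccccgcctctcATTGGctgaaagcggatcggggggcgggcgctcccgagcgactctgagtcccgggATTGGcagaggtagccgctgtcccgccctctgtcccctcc
Cyp51: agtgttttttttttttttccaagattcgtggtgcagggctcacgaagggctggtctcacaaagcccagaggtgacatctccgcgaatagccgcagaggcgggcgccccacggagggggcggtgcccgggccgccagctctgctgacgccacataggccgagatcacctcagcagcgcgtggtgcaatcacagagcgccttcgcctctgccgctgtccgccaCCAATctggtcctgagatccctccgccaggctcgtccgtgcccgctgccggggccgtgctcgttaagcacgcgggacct
Lss: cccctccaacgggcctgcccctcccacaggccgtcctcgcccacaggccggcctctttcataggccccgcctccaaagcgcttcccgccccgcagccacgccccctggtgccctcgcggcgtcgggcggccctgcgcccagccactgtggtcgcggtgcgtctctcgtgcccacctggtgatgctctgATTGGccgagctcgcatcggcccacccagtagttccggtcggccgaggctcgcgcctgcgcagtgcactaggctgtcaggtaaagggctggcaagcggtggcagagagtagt
Scap: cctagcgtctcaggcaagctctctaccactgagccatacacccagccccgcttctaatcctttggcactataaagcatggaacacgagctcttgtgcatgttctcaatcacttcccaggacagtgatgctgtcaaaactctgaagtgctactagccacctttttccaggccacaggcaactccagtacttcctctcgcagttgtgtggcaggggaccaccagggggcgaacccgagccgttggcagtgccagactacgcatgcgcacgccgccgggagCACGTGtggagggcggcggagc
Acly: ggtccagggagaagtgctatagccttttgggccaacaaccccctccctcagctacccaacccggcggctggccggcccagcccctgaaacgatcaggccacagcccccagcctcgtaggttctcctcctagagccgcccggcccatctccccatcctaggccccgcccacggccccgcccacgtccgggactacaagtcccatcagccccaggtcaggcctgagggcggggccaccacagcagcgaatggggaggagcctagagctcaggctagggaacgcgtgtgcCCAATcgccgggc

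In Hmgcs1 the capitals hold 1 sterol regulatory element, at -137 to -129 with the transcription start as 0, and 4 CCAAT boxes. Cyp51, Lss and Acly each hold 1 CCAAT box, and Scap, shown at the first of its 2 listed starts, holds 1 E-box and no CCAAT box. For genes with several listed starts, a motif in any of these windows was counted. A promoter was matched for 22 of the 28 members, by symbol; Fdft1, Stard4, Fdps, Sqle, Scd1 and Scd2 had none. A CCAAT box on either strand was found in 19 of these 22 promoters and in all 14 matched sterol enzymes, whereas 41.1% of all 27025 genes with a promoter of this length had one. The GC box GGGCGG, which is not capitalised, was found in 18 of 22 promoters of members and in 38.2% of all genes. The E-box was found in 5 of 22 members (Scap, Insig1, Hsd17b7, Sc5d and Dhcr7) and in 8.09% of all genes. TCACNCCAC was found in Hmgcs1 alone among the 22 and in 1.44% of all genes. None of these motifs contains another, no test was made of these shares, and a missing match says only that these letters are not in this window.

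The levels of the members spanned a wide range. Per kilobase of exon, averaged over the 15 tumours, Scd2, a desaturase that makes monounsaturated fatty acids, was the highest at 87.8 units per kb. It was followed by Acly, which makes cytosolic acetyl-CoA from citrate, at 53.8 units per kb, Srebf1 at 35.7 units per kb and Srebf2 at 31.9 units per kb. The lowest were Acaca, the acetyl-CoA carboxylase that commits carbon to fatty acids, at 2.70 units per kb, and Fdps, which makes farnesyl diphosphate, at 0.83 units per kb. These last 2 values are uncertain, since 53.2% of the 31-base words of Acaca transcripts and 67.5% of those of Fdps also occur in another gene. The same holds for Fdft1 (36.8%), Idi1 (30.5%) and Tm7sf2 (21.2%). How far shared sequence enters the fold changes and correlations of these genes cannot be told from counts per gene. The related desaturase Scd1 was at 7.27 units per kb. The ratio of Scd2 to Scd1 per kilobase had a median of 18.4 in KPAT tumours (range 9.83 to 27.7), 15.7 in KAT tumours (6.26 to 20.2) and 8.55 in KPT tumours (3.41 to 24.7), so Scd2 was above Scd1 in all 15 tumours and the 3 ranges overlapped.

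**Figure D1:**
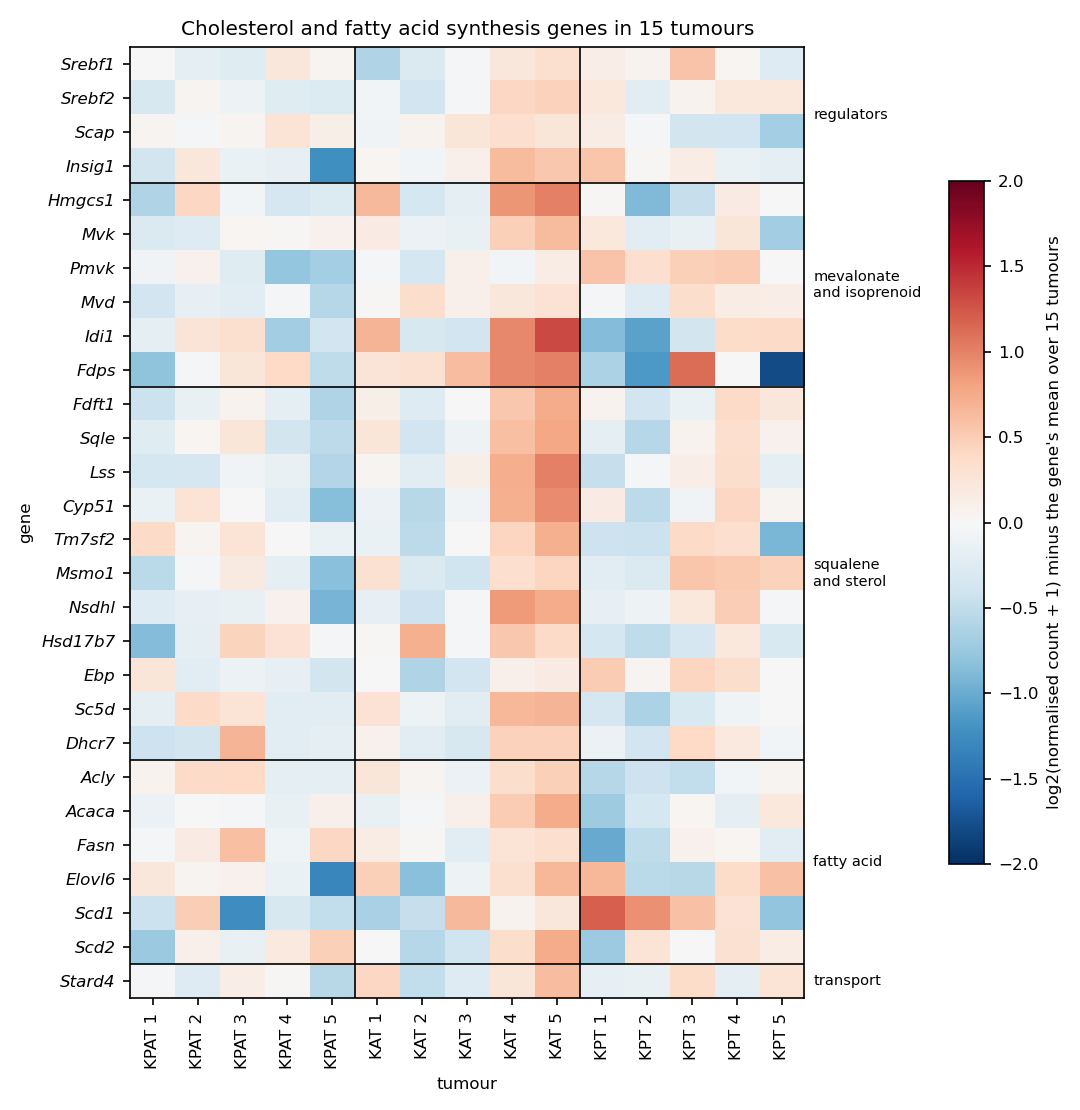
Level of each of the 28 genes (rows, by role) in each of the 15 tumours (columns, KPAT, KAT, then KPT), as log2(normalised count + 1) minus the gene's mean over the 15 tumours. Red is above and blue below that mean; the columns KAT 4 and KAT 5 are red for nearly all sterol enzymes, and no group is of 1 colour.

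The comparison of KPAT with KPT tumours addresses floxed Arf on top of floxed Trp53. Of the 28 members 1 was lower in KPAT tumours and none was higher, by limma's moderated test with a Benjamini-Hochberg adjusted p below 0.05 over all 16648 genes. edgeR and DESeq2 gave the same counts, and 7 of 28 members had an unadjusted p below 0.05 in limma, against 32.2% of all tested genes. In the same comparison 16.5% of all tested genes were called, 9.13% higher and 7.4% lower. The median log2 fold change of the 28 members was -0.13, against 0.02 over all tested genes, and 11 of 28 values were positive. For 24 of 28 members the 95% interval of the fold change lay within a 2-fold change in either direction. The other 4 were Pmvk, Fdps, Elovl6 and Scd1, whose intervals passed 1 on the log2 scale in size.

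Pmvk, the phosphomevalonate kinase of the mevalonate pathway, was the gene that passed. It had 19.6, 21.9, 17.4, 12.01 and 12.9 units in KPAT tumours 1 to 5, against 30.6, 26.2, 28.9, 29.4 and 20.7 units in KPT tumours 1 to 5. The lowest KPT tumour lay below the highest KPAT tumour, so the groups overlapped by that pair alone. The log2 fold change was -0.72 (SE 0.18, adjusted p = 0.0153 by limma). In KAT tumours Pmvk had 20.3, 16.1, 22.2, 19.9 and 22.8 units, and its log2 fold change against KPT was -0.42 (SE 0.18, adjusted p = 0.0899). The call of Pmvk held without each library in turn, and ended with the ductal marker level as a covariate (adjusted p = 0.181), with the adipocyte marker level as a covariate (0.0692) and without KPT 3, KAT 2 and KPAT 5 together (0.0624).

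KAT against KPT compares 2 single losses, Arf with Trp53. Of the 28 members 2 were higher in KAT tumours, Scap and Acly, and none was lower, while 28.9% of all tested genes were called, 15.6% higher and 13.3% lower. By edgeR and by DESeq2, 3 members were higher, with Sc5d added, and none was lower. At an unadjusted p below 0.05 there were 10 of 28 members, against 41.2% of all genes. The members' median log2 fold change was 0.19, against 0.03 over all genes, and 22 of 28 values were positive. The members vary together (median Pearson r 0.43 with group means taken out), so these are not 28 separate observations. Averaged over the 28 members, log2(normalised count + 1) was 10.04, 9.73, 9.91, 10.43 and 10.56 in KAT tumours 1 to 5. In KPT tumours this average ran from 9.67 to 10.14, so only KAT 4 and KAT 5 lay above that range. The 95% interval lay within a 2-fold change for 23 of 28 members. KPAT against KPT and KAT against KPT share the KPT tumours.

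Scap, the escort of the SREBP precursors, had 82.1, 91.0, 102, 109 and 102 units in KAT tumours 1 to 5, against 95.6, 83.8, 66.9, 66.0 and 53.9 units in KPT tumours 1 to 5. The groups overlapped, since KPT 1 and KPT 2 lay above KAT 1. The log2 fold change was 0.43 (SE 0.14, adjusted p = 0.0312 by limma). KPAT tumours had 89.7, 85.2, 89.8, 104 and 94.0 units, a log2 fold change against KPT of 0.36 (SE 0.14, adjusted p = 0.0841). The call in KAT was lost in 12 of 31 alternative analyses, including those without KAT 3, KAT 4, KAT 5, KPT 3, KPT 4 or KPT 5 (adjusted p up to 0.0763) and with KAT 4 and KAT 5 averaged as 1 sample (log2 fold change 0.40, adjusted p = 0.07).

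Acly had 327, 288, 255, 353 and 384 units in KAT tumours 1 to 5, against 186, 209, 197, 266 and 287 units in KPT tumours 1 to 5. KPT 4 and KPT 5 lay above the lowest KAT tumour, so these groups overlapped too. This gave a log2 fold change of 0.50 (SE 0.16, adjusted p = 0.034 by limma). In KPAT tumours Acly had 291, 360, 367, 245 and 245 units, a log2 fold change against KPT of 0.40 (SE 0.16, adjusted p = 0.107). This call was lost in 11 of 31 alternatives, among them those without KAT 1, KAT 4, KAT 5, KPT 1, KPT 2 or KPT 3 (adjusted p up to 0.0839) and with KAT 4 and KAT 5 averaged (log2 fold change 0.44, adjusted p = 0.0792).

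The comparison of KPAT with KAT tumours addresses floxed Trp53 on top of floxed Arf. None of the 28 members passed in limma, and edgeR called none, whereas DESeq2 called Mvd lower. Few genes were called at all by limma, 8 or 0.0481% of those tested, whereas DESeq2 called 306. At an unadjusted p below 0.05 there were 4 members (Insig1, Mvd, Fdft1 and Lss) against 10.8% of all genes. The members' median log2 fold change was -0.31, against -0.003 over all genes, with 4 of 28 values positive, and the 95% interval lay within a 2-fold change for 20 of 28. Averaged over the 28 members, log2(normalised count + 1) ran from 9.58 to 10.00 in KPAT tumours, and KAT 4 and KAT 5 were the highest KAT tumours. Mvd, the mevalonate diphosphate decarboxylase, was the 1 member of which the groups did not overlap in this comparison. It had 27.3, 31.9, 30.9, 35.3 and 24.1 units in KPAT tumours 1 to 5, against 36.5, 45.7, 38.3, 42.0 and 43.7 units in KAT tumours 1 to 5, a log2 fold change of -0.47 (SE 0.13, adjusted p = 0.242 by limma and 0.0454 by DESeq2).

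**Figure D2:**
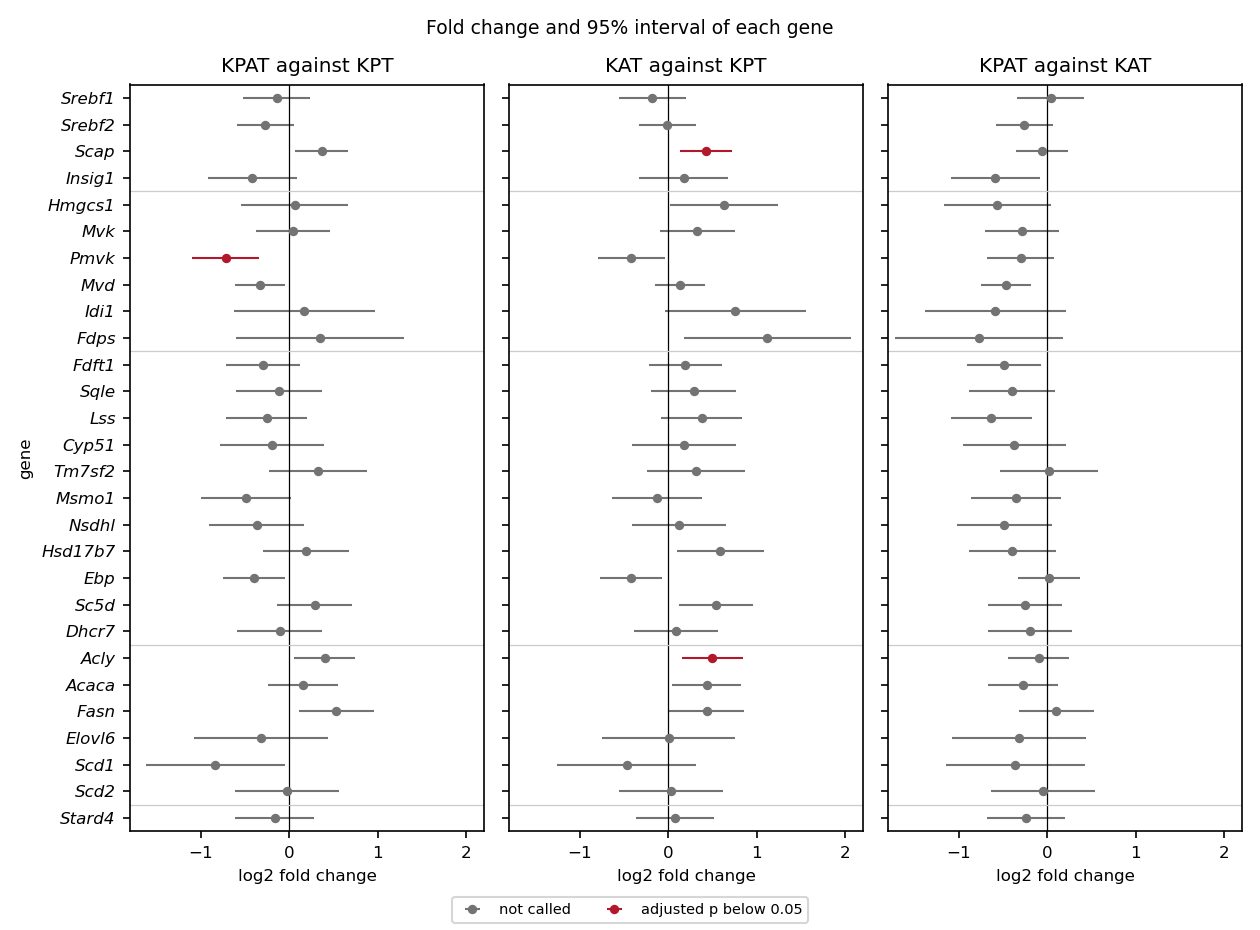
Log2 fold change of each gene (rows) with its 95% interval in KPAT against KPT, KAT against KPT and KPAT against KAT tumours; red marks an adjusted p below 0.05. Pmvk at -0.72 in KPAT against KPT, and Scap at 0.43 and Acly at 0.50 in KAT against KPT, are the 3 red points.

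Among the regulators, Srebf2 had 180, 234, 211, 191 and 186 units in KPAT tumours 1 to 5, 217, 173, 221, 302 and 310 units in KAT tumours 1 to 5, and 260, 193, 238, 260 and 260 units in KPT tumours 1 to 5. KAT 4 and KAT 5 were the highest of all 15 tumours and KAT 2 was the lowest, so KAT spanned the other 2 groups. The log2 fold change was -0.27 in KPAT against KPT (SE 0.15, adjusted p = 0.237) and -0.01 in KAT against KPT (SE 0.15, adjusted p = 0.961), by limma.

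Srebf1 had 196, 172, 167, 230 and 206 units in KPAT tumours, 131, 161, 194, 232 and 247 units in KAT tumours and 216, 207, 292, 202 and 165 units in KPT tumours. All 3 groups overlapped, with KPT 3 the highest and KAT 1 the lowest. Its log2 fold change was -0.14 in KPAT against KPT and -0.18 in KAT against KPT (SE 0.18 each, adjusted p = 0.619 and 0.474 by limma).

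Insig1, itself a known SREBP target, had 36.5, 55.4, 43.0, 42.2 and 20.1 units in KPAT tumours, 48.5, 45.4, 51.0, 73.3 and 68.9 units in KAT tumours and 69.4, 48.0, 52.6, 43.0 and 41.5 units in KPT tumours. The lowest was KPAT 5 and the highest were KAT 4, KPT 1 and KAT 5. The log2 fold change was -0.59 in KPAT against KAT (SE 0.24, adjusted p = 0.392 by limma), the largest of the regulators in that comparison.

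**Figure D3:**
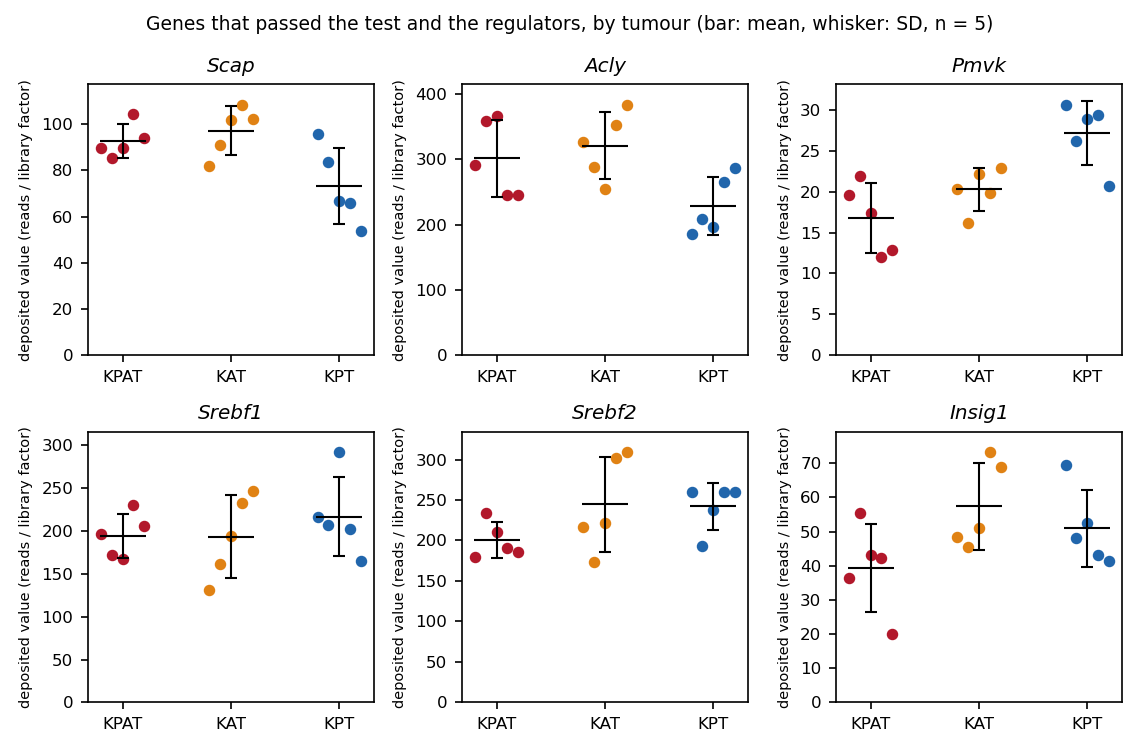
Deposited values (reads divided by a library factor) of Scap, Acly, Pmvk, Srebf1, Srebf2 and Insig1 in each tumour of KPAT, KAT and KPT; bars are means and whiskers SDs over 5 tumours. Pmvk is at 12.01 to 21.9 in KPAT and 20.7 to 30.6 in KPT, and every panel has overlapping groups.

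The spread of the other mevalonate and isoprenoid steps differed by gene, with a coefficient of variation in KPAT, KAT and KPT tumours of 28.4%, 39.4% and 27.2% for Hmgcs1, 14.4%, 9.16% and 15.6% for Mvd, and 33.5%, 24.5% and 84.2% for Fdps. Hmgcs1, the synthase that makes HMG-CoA, the precursor of mevalonate, had 70.2, 143, 103, 84.7 and 87.8 units in KPAT tumours, 167, 83.9, 93.5, 196 and 215 units in KAT tumours, and 108, 57.6, 77.7, 119 and 108 units in KPT tumours. KAT 1, KAT 4 and KAT 5 lay above all 10 tumours of the other groups, while KAT 2 and KAT 3 lay among them. Its log2 fold change in KAT against KPT was 0.63 (SE 0.28, adjusted p = 0.109 by limma). Hmgcs1 passed without KAT 2 (adjusted p = 0.0404 by limma) and did not pass in 30 of 31 alternatives (adjusted p up to 0.243).

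Idi1, the isopentenyl diphosphate isomerase, spanned 9.12 to 18.5 units in KPAT, 11.3 to 36.9 units in KAT and 7.03 to 19.2 units in KPT tumours. Mvk, the mevalonate kinase, spanned 16.9 to 22.1 units in KPAT, 18.7 to 32.2 units in KAT and 12.7 to 24.4 units in KPT tumours. Fdps spanned 1.72 to 4.03 units in KPAT, 3.66 to 6.21 units in KAT and 0.85 to 6.69 units in KPT tumours, with KPT 3 alone of its group above 4 units. Its log2 fold change in KAT against KPT was 1.12 (SE 0.44, adjusted p = 0.0705 by limma) and 1.52 without KPT 3 (adjusted p = 0.00935). Fdps did not pass in 28 of 30 alternatives (adjusted p up to 0.506).

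The 11 squalene and sterol steps gave no call in any of the 3 comparisons in limma, with 1, 3 and 2 of 11 genes at an unadjusted p below 0.05 in KPAT against KPT, KAT against KPT and KPAT against KAT, where 32.2%, 41.2% and 10.8% of all genes had one. Their median log2 fold change was -0.20 in KPAT against KPT, 0.19 in KAT against KPT and -0.37 in KPAT against KAT. Cyp51, the lanosterol demethylase, had 66.8, 88.4, 72.9, 63.1 and 40.9 units in KPAT tumours, 68.0, 49.9, 69.8, 120 and 142 units in KAT tumours, and 82.2, 50.9, 70.1, 97.5 and 76.5 units in KPT tumours. Its 2 highest values were KAT 4 and KAT 5, and the other 3 KAT tumours lay among the KPT tumours or below them.

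Sc5d, a late desaturase of the sterol ring, came closest to a call in KAT against KPT. It had 52.5, 40.0, 36.5, 68.0 and 68.6 units in KAT tumours, against 33.8, 27.4, 34.8, 40.2 and 42.9 units in KPT tumours, a log2 fold change of 0.54 (SE 0.20, adjusted p = 0.0534 by limma). It passed in 7 of 31 alternatives, among them edgeR (adjusted p = 0.0413) and DESeq2 (0.033). The isomerase Ebp had a negative fold change in both comparisons with KPT. It averaged 50.8 ± 8.48 units in KPAT and 50.7 ± 11.1 units in KAT, against 66.9 ± 10.1 units in KPT (SD, n = 5 each), with adjusted p = 0.108 and 0.0687 by limma.

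Of the remaining steps, Lss, which closes squalene epoxide into lanosterol, had its 2 highest values in KAT 5 (70.5 units) and KAT 4 (57.8 units), and spanned 23.4 to 33.5 units in KPAT and 25.5 to 44.9 units in KPT tumours. Nsdhl, an enzyme of sterol demethylation, was at 40.7 units in KAT 4 and 38.0 units in KAT 5, above 11.8 to 24.0 units in KPAT and 20.2 to 31.9 units in KPT tumours. Fdft1, the squalene synthase, and Sqle, the squalene epoxidase, were likewise highest in KAT 5, at 124 and 108 units. Msmo1, the methylsterol oxidase, was highest in KPT 3 (96.0 units), Dhcr7, the last reductase, in KPAT 3 (60.4 units), Hsd17b7, a sterone reductase, in KAT 2 (41.1 units), and Tm7sf2, a sterol reductase, in KAT 5 (44.98 units). Hsd17b7 had a log2 fold change of 0.59 in KAT against KPT (SE 0.23, adjusted p = 0.0677 by limma).

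Beside Acly, the fatty acid steps gave no call. Fasn, the fatty acid synthase, had 216, 250, 337, 210 and 296 units in KPAT tumours, 247, 225, 190, 268 and 282 units in KAT tumours, and 111, 157, 236, 228 and 191 units in KPT tumours. KPT 1 and KPT 2 were the lowest of all, and the groups overlapped. Its log2 fold change against KPT was 0.53 in KPAT (SE 0.20, adjusted p = 0.0788) and 0.43 in KAT (SE 0.20, adjusted p = 0.113), by limma.

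Scd1 had 23.7, 44.9, 13.5, 25.5 and 22.7 units in KPAT tumours, 20.3, 23.2, 50.02, 33.4 and 37.5 units in KAT tumours, and 72.9, 60.2, 47.9, 39.1 and 18.5 units in KPT tumours. KPT held both the highest values and, after KPAT 3, the lowest one. Its log2 fold change in KPAT against KPT was -0.84 (SE 0.37, adjusted p = 0.132 by limma) and -1.14 without KPT 5 (adjusted p = 0.0292). Scd1 did not pass in 30 of 31 alternatives (adjusted p up to 0.428). Scd2 averaged 469 ± 134 units in KPAT, 495 ± 188 units in KAT and 474 ± 118 units in KPT tumours (SD, n = 5 each), with log2 fold changes against KPT of -0.02 and 0.03. Acaca averaged 43.8 ± 3.01 units in KPAT, 54.4 ± 14.5 units in KAT and 40.2 ± 9.57 units in KPT tumours. Elovl6, which lengthens palmitate, averaged 16.4 ± 5.40, 20.5 ± 7.23 and 20.5 ± 7.83 units in KPAT, KAT and KPT tumours. Stard4, a carrier that moves cholesterol between membranes, spanned 40.8 to 66.2 units in KPAT, 42.5 to 92.6 units in KAT and 52.9 to 77.9 units in KPT tumours.

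The sterol enzymes varied together from tumour to tumour within the genotypes. With each group's mean taken out, the median Pearson r over the 15 tumours was 0.52 over the 136 pairs of sterol enzymes, with 132 pairs positive and 55.1% above 0.5. Between sterol enzymes and all other tested genes the median was -0.01 and 5.68% of pairs were above 0.5. The genes share libraries and depth, and these values are a description. Within each group of 5 tumours the median r of the sterol enzymes was 0.43 in KPAT, 0.85 in KAT and 0.52 in KPT. It was higher for the squalene and sterol steps (median 0.66 over 55 pairs) than for the mevalonate and isoprenoid steps (0.27 over 15 pairs), with no test of the difference. The most alike pair was Idi1 with Sc5d (r = 0.93), ahead of Fdft1 with Sqle and Fdft1 with Cyp51 (r = 0.92 each).

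KAT 4 and KAT 5 held the highest levels of many of these genes. They were the 2 highest of all 15 tumours for 10 of the 17 sterol enzymes and the 2 highest KAT tumours for 14 of the 17, and KAT 5 was the highest tumour for 9. At the low end, KPAT 5 was the lowest tumour for 6 of the 17, and KPT 2 for 4. The mean of KAT 4 and KAT 5 was 2.10 times that of KAT 1 to 3 for Cyp51 and for Idi1, 1.98 times for Nsdhl, 1.84 times for Lss and 1.79 times for Hmgcs1, but 1.07 times for Mvd and 1.09 times for Pmvk. Without these 2 libraries the median r of the sterol enzymes was 0.38, with 126 of 136 pairs positive, and with their mean as 1 sample it was 0.46, with 132 of 136 positive. Summed adipocyte marker levels were 24.4 to 55.4 units in KPAT, 42.7 to 139 units in KAT and 42.6 to 187 units in KPT tumours, with Lep listed at 0 in 11 of 15 tumours and Adipoq in 5. The median r between sterol enzymes and adipocyte markers was 0.01 over 136 pairs, and that with proliferation markers was 0.19. Over all the marker lists it ran from -0.17 (fibroblast and mesenchymal) to 0.22 (T and B cell), with endothelium at 0.19.

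The fatty acid steps had a lower median r than the sterol enzymes, with no test of the difference. Their 15 pairs had a median r of 0.06 (range -0.48 to 0.68). Within each group of 5 tumours it was 0.05 in KPAT, 0.63 in KAT, where 13 of 15 pairs were positive, and -0.17 in KPT, and with KAT 4 and KAT 5 averaged as 1 sample the median over all groups was -0.04. Acly went with the sterol enzymes (median r 0.49, up to 0.89 with Idi1), and so did Elovl6 (0.52), Acaca (0.46) and Fasn (0.39). Scd1 did not (median r -0.03), while its relative Scd2 had 0.40. Stard4 had 0.60. Among the sterol enzymes Pmvk (0.27) and Hsd17b7 (0.28) were the least like the others, and Sqle (0.77) the most.

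**Figure D4:**
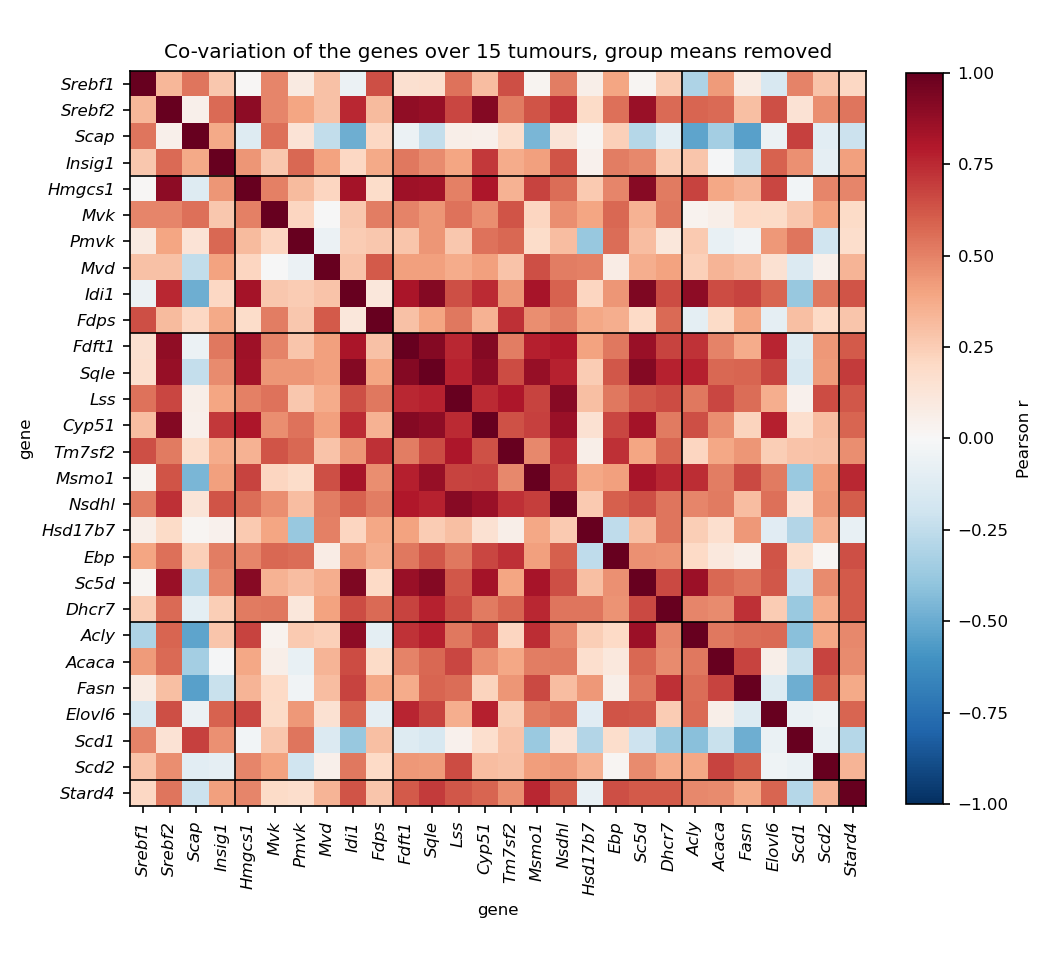
Pearson r between each pair of the 28 genes over 15 tumours after each group's mean was taken out; rows and columns follow the same order by role. The block of squalene and sterol steps is mostly dark red (median r 0.66), whereas Scd1 and Scap are pale or blue against it (medians over all sterol enzymes -0.03 and 0.02).

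Srebf2 followed the sterol enzymes most closely of the 4 regulators. Its r with them had a median of 0.63 (range 0.19 to 0.92), against 0.41 for Insig1, 0.25 for Srebf1 and 0.02 for Scap. Without KAT 4 and KAT 5 these medians were 0.39 for Srebf2, 0.29 for Insig1, -0.07 for Srebf1 and -0.27 for Scap, and with their mean as 1 sample 0.58, 0.39, 0.16 and -0.02 in the same order. Over the 96 relations between a regulator and another member, permutation of tumours within groups (100000 permutations, 2-sided) with Benjamini-Hochberg adjustment left 5, all of Srebf2 and all positive, by both Pearson's r and Spearman's rho. With Hmgcs1, r was 0.89 (p = 4e-05, adjusted 0.00384) and rho was 0.90 (p = 7e-05, adjusted 0.00672). With Cyp51, r was 0.92 (p = 1e-04, adjusted 0.0048) and rho was 0.91 (p = 0.00027, adjusted 0.013).

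The other 3 were Fdft1 (r = 0.89, p = 0.00035, adjusted 0.0112; rho = 0.87, p = 0.00048, adjusted 0.0154), Sqle (r = 0.87, p = 0.00072, adjusted 0.0173; rho = 0.81, p = 0.00215, adjusted 0.0413) and Sc5d (r = 0.86, p = 0.00103, adjusted 0.0198; rho = 0.84, p = 0.00207, adjusted 0.0413), by the same permutation test over 15 tumours. Without KAT 2 and KAT 5, the 2 tumours farthest from the median of Srebf2, r was 0.85 with Hmgcs1, 0.86 with Cyp51, 0.82 with Fdft1, 0.78 with Sqle and 0.84 with Sc5d. With the mean of KAT 4 and KAT 5 as 1 sample the r of these 5 ran from 0.83 (Sc5d) to 0.90 (Cyp51) over 14 samples, and all 5 still passed by Pearson's r (permutation test, adjusted p 0.0134 to 0.0432), while 4 passed by Spearman's rho, Sc5d having an adjusted p of 0.0501. Without both libraries the r of Srebf2 with the 17 sterol enzymes was positive for all 17, and the highest was 0.85. These correlations say nothing of cause.

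**Figure D5:**
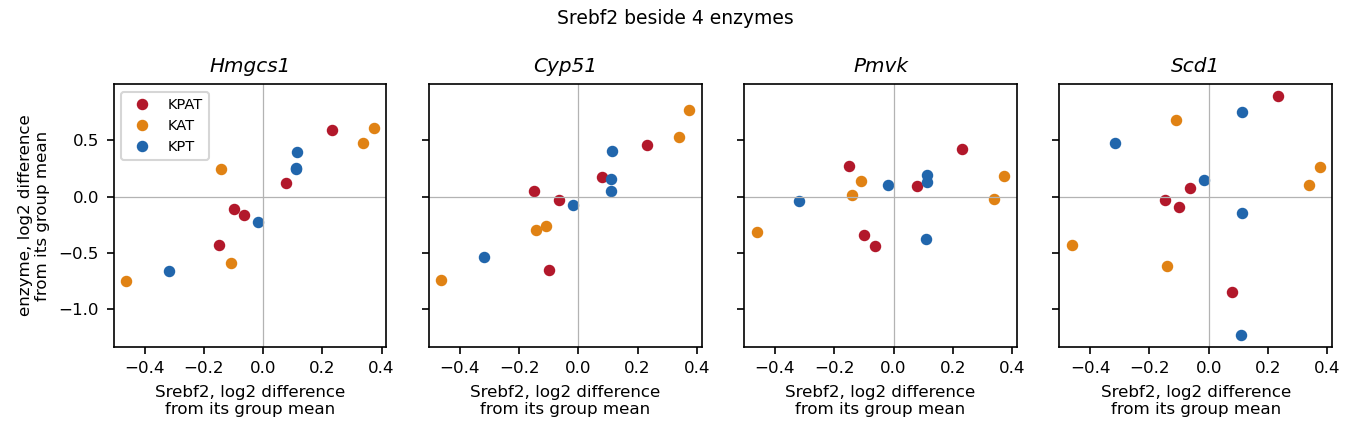
Srebf2 (horizontal) beside Hmgcs1, Cyp51, Pmvk and Scd1 (vertical), each as the log2 difference from its group's mean, 1 point per tumour of KPAT, KAT or KPT. Points rise along a line for Hmgcs1 (r = 0.89) and Cyp51 (r = 0.92) and scatter for Pmvk (r = 0.39) and Scd1 (r = 0.14).

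Related genes outside the list were described from 6 lists chosen by function. Their counts stand beside 16.5% of all genes called in KPAT against KPT and 28.9% in KAT against KPT. At an unadjusted p below 0.05 in limma, the shares of all genes were 32.2% and 41.2% in the same order. Shares of all genes without overlap between groups are not given. The share called per list ran from 0 to 30% (SREBP processing and turnover) in KPAT against KPT and from 0 to 44.4% (glycerolipid synthesis) in KAT against KPT. Of 9 other genes of sterol and isoprenoid synthesis, none passed in KPAT against KPT (2 at an unadjusted p below 0.05) and 1 was lower in KAT against KPT. This was Por, the reductase that supplies electrons to Cyp51 and other cytochromes P450, at 143, 183, 283, 159 and 133 units in KAT tumours, against 469, 406, 263, 229 and 353 units in KPT tumours (log2 fold change -0.94, SE 0.23, adjusted p = 0.00811 by limma). Acat2, which makes acetoacetyl-CoA, ran with the sterol enzymes (median r 0.61), and Por ran against them (median r -0.46).

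Of 10 genes of SREBP processing and turnover, 1 was higher and 2 were lower in KPAT against KPT, and 2 were lower in KAT against KPT. Ubxn8, an adaptor for protein degradation in the membrane of the endoplasmic reticulum, was lower in both, at most at 35.9 units in KPAT and 32.3 units in KAT, against 40.3 to 51.4 units in KPT tumours, without overlap (log2 fold changes -0.49 and -0.59, adjusted p = 0.0076 and 0.00113 by limma). Erlin2, a scaffold for such degradation, was lower in both too (log2 fold changes -0.56 and -0.63, adjusted p = 0.0245 and 0.00829). Its partner Erlin1 was higher in KPAT, at 37.5, 55.9, 27.3, 34.2 and 78.4 units, against 25.8, 20.9, 25.0, 26.8 and 27.0 units in KPT tumours (log2 fold change 0.79, SE 0.23, adjusted p = 0.0309). The calls of Erlin2 and Erlin1 in KPAT against KPT were each lost without some single libraries (adjusted p over all alternatives up to 0.274 and 0.279).

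Of 13 other genes of fatty acid synthesis and desaturation, none passed in either comparison with KPT (0 and 3 genes at an unadjusted p below 0.05 in KPAT and KAT). Of 9 genes of glycerolipid synthesis, 1 was lower in KPAT against KPT, and 1 was higher and 3 were lower in KAT against KPT. The phosphatidate phosphatase Lpin1 was higher in KAT, at 19.96, 25.9, 37.6, 34.0 and 22.9 units, against 15.9, 19.9, 14.3, 15.2 and 13.8 units in KPT tumours, without overlap (log2 fold change 0.80, SE 0.17, adjusted p = 0.00391). Its relative Lpin2 was lower in both KPAT and KAT (log2 fold changes -0.64 and -0.65, adjusted p = 0.0377 and 0.0244), and both calls were lost without some single libraries. Agpat2, an acyltransferase that makes phosphatidate, averaged 40.0 units in KAT against 63.5 units in KPT tumours (log2 fold change -0.64, adjusted p = 0.0151).

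Of 14 genes of liver X receptor signalling, cholesterol efflux and cholesterol ester formation, 1 was higher and 2 were lower in KPAT against KPT, and 2 were higher and 1 was lower in KAT against KPT (21.4% called in each). Soat2, which esterifies cholesterol in intestine and liver, was lower in both, at 11.5 to 20.3 units in KPAT and 11.5 to 18.5 units in KAT, against 19.7 to 60.2 units in KPT tumours (log2 fold changes -1.09 and -1.25, adjusted p = 0.015 and 0.00394). The exporter gene Abcg1 was higher in KPAT (log2 fold change 0.87, adjusted p = 0.049), a call lost in 20 of 31 alternatives. The receptor gene Nr1h2 was lower in KPAT (-0.39, adjusted p = 0.0386), a call lost in 14. The exporter gene Abca1 was higher in KAT (0.66, adjusted p = 0.0326; lost in 9), and so was Ch25h, which makes an oxysterol (1.44, adjusted p = 0.0201; lost in 5 of 29). Ch25h was low, with 1.78 to 4.70 units in KAT and 0.54 to 2.94 units in KPT tumours.

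Of 11 genes of fatty acid oxidation, 1 was lower in KPAT against KPT, and 1 was higher and 1 was lower in KAT against KPT (9.09% and 18.2% called, below the shares of all genes). The medium-chain dehydrogenase Acadm was lower in both, at 66.0 to 88.9 units in KPAT and 75.6 to 101 units in KAT, against 112 to 183 units in KPT tumours, without overlap (log2 fold changes -0.77 and -0.60, adjusted p = 0.00517 and 0.00782). The receptor gene Ppara was higher in KAT at a low level, 0.94 to 3.28 units against 0.19 to 1.20 units in KPT tumours (log2 fold change 1.40, adjusted p = 0.0487), a call lost in 22 of 29 alternatives. In KPAT against KAT no gene of the 6 lists passed in limma, with 0 to 2 genes per list at an unadjusted p below 0.05. Over all genes, 0.0481% were called in that comparison and 10.8% had an unadjusted p below 0.05.

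Markers of several cell types differed between genotypes, with 16.5% and 28.9% of all genes called in KPAT and in KAT against KPT as the background. At an unadjusted p below 0.05 in limma, the shares of all genes were 32.2% and 41.2%. Of 10 fibroblast markers, 7 were higher in KPAT and 10 in KAT, against KPT, with summed levels of 5110 to 14094 units in KPAT and 6539 to 9750 units in KAT, against 921 to 4090 units in KPT tumours. Of 10 macrophage markers, 5 were higher in KPAT and 8 in KAT (627 to 1168 and 958 to 1912 units, against 473 to 684 units in KPT tumours). Of 10 ductal markers, 2 were lower in KPAT and 5 in KAT (8196 to 10999 and 7283 to 11986 units, against 11419 to 19531 units in KPT tumours). Of 8 intestinal markers, 3 were lower in each (204 to 1285 and 223 to 2511 units, against 1011 to 4704 units in KPT tumours), with Cdx1 listed at 0 in 5 tumours. Of 7 hepatocyte markers none passed, with 1 at an unadjusted p below 0.05 in each comparison with KPT (17.002 to 97.2 and 11.5 to 46.9 units, against 23.6 to 641 units in KPT tumours). Of 8 tested acinar markers none passed in either comparison with KPT, and none had an unadjusted p below 0.05. Of 8 tested adipocyte markers 1 was lower in each, and of 7 tested T and B cell markers none passed in KPAT and 1 was higher in KAT. Of 7 neutrophil markers 1 was lower in KPAT, and 1 was higher and 1 was lower in KAT. Of 6 endothelial and 7 mesenchymal markers, 2 and 4 were higher in each. Of 8 proliferation markers none passed in KPAT and 2 were lower in KAT.

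With the ductal marker level as a covariate, Pmvk, Scap and Acly had log2 fold changes of -0.68, 0.65 and 0.50 in the comparisons named above, and none of the 3 passed (adjusted p = 0.181, 0.0742 and 0.254 by limma). That fit leaves 55 calls over all genes in KPAT against KPT and 748 in KAT against KPT. The part of the ductal, intestinal, fibroblast and macrophage marker levels in the results above was otherwise not tested. Since no library number of 1 group falls within the range of another's, genotype cannot be told apart from any batch tied to those numbers.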

How the data were processed

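RNA from 15 whole pancreatic tumours was sequenced, and per the submitters' processing notes HISAT2 2.0.4 and the mouse builds mm10 and GRCm38 were used; no source used here gives the counting tool or strand setting. The deposited signal values are whole reads per gene divided by 1 factor per library, as their steps show: times that factor, 100.0% lay within 0.01 of a whole number in every library. Depth was 14696138 to 26248484 reads per library, and counting error weighs most on low genes such as Fdps. Symbols were matched for 20574 of 20636 Ensembl IDs (GENCODE M21, GRCm38). One common multiplier of 19.478 was applied, genes with a mean of at least 10 normalised counts were kept (16648), and log2(normalised count + 1) was fitted over all 15 libraries with limma 3.58.1 in R 4.3.3, with Benjamini-Hochberg adjustment over all genes tested; fold changes on this scale understate those of low genes. Nothing says how the deposited factors were made. Groups come from the labels; 1 allele that all groups share is not reported here.

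All 28 members are named. Values by tumour are given for called members and regulators and for others chosen after their values were seen, and up to 3 called genes per related list and comparison are named. The members and lists were chosen with earlier results of these data known. Alternatives were 31 settings, among them edgeR 4.0.16 and DESeq2 1.42.0 on the recovered reads and marker levels as covariates; the average of KAT 4 and KAT 5 was added after seeing the data. Correlations used residuals from group means. Scripts were tested on simulated data. Nothing in the labels says that replicates share a batch, litter or day.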

Additional observations from a re-analysis of the deposited data

Results flagged for a closer look

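In 4 of 126 groups of 5 tumours checked (the 28 members and 14 named related genes in 3 groups each), 1 tumour lay far from the other 4 of its group, with a gap to the nearest over 0.71 of the whole range; chance alone flags about 1 in 20 groups, or 6.3 of 126. Hsd17b7 had 28.9 units in KPT 4, against 17.6 to 20.1 units in the other KPT tumours. Dhcr7 had 60.4 units in KPAT 3, against 28.4 to 32.8 units in the other KPAT tumours. Nr1h2 had 153 units in KAT 3, against 124 to 129 units in the other KAT tumours. Ppara had 3.28 units in KAT 1, against 0.94 to 1.59 units in the other KAT tumours.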

How the results depend on the processing

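Over 31 alternatives the 84 log2 fold changes of the members gave 2601 values, of which 94 changed sign, in 24 fold changes that were never called and were at most 0.32 in size; no call reversed. The number of members called higher in KAT against KPT, 2, became 1 with the replicate block, without KPT 1 and KAT 1, and without KPT 3, KAT 2 and KPAT 5. It became 0 with the ductal covariate or with KAT 4 and KAT 5 averaged. It became 3, with Sc5d added, with quantile scaling, on the deposited scale, with edgeR and with DESeq2. Leaving out 1 library gave 0 (without KAT 4 or KAT 5) to 4 (without KAT 2). Members higher in KPAT against KPT, 0, became 1 (Scap) without KPT 1 and KAT 1 and with the adipocyte covariate, and ran from 0 to 1 with 1 library left out. Members lower in KPAT against KPT, 1, became 0 without KPT 3, KAT 2 and KPAT 5 and with either covariate, and ran from 1 to 2. Members lower in KAT against KPT, 0, became 1 (Ebp) with the adipocyte covariate, and ran from 0 to 1. Members lower in KPAT against KAT, 0, became 1 with DESeq2. Same-numbered libraries did not deviate together (residual r -0.21 to 0.25, over 0.1 in 5 of 15 pairs), so the numbers do not pair the tumours; with the replicate block Scap (adjusted p = 0.0623) and Acly (0.0655) lost their calls and Acaca gained one (0.0436). The causes were not tested.

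Over all genes, the 2752 calls in KPAT against KPT became 1832 with only the 2 groups compared, 1687 without KPAT 2, 1728 without KPT 3, KAT 2 and KPAT 5, 1240 with the adipocyte covariate and 55 with the ductal covariate. The 4805 in KAT against KPT became 748 with the ductal covariate. The 8 in KPAT against KAT became 17 with quantile scaling, 15 with only the 2 groups, 45 without KAT 2, 17 without KPT 3, KAT 2 and KPAT 5, 4 on the deposited scale and 306 with DESeq2. No scaling moved the median of all genes by over 0.1.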
